A study of Mus musculus with 21 samples.

Results

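Collagens are the triple-helical proteins of the extracellular matrix, and the genes described here are all those whose symbol has the form Col, a number, a and a second number. The rule is a pattern in the name and uses no measured value. It found 44 collagen genes among the 48321 gene symbols of the deposited count tables. They were followed by RNA-seq in 21 samples of embryoid bodies, the aggregates that mouse embryonic stem cells form when they differentiate. All samples were taken on day 3 of differentiation, and they form 7 groups of 3. The series compares forms of TWIST1, a transcription factor of the basic helix-loop-helix class, which pairs with itself or with an E-protein such as TCF3, TCF4 or TCF12.

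All 7 groups derive from the A2loxCre line of mouse embryonic stem cells (strain C57BL/6), and all samples except the uninduced ones were given doxycycline. The first group is the parental A2loxCre line, which has no TWIST1 construct and received the drug too. The next groups carry an integrated TWIST1 monomer, 1 without doxycycline and 1 with it. The other four carry, with doxycycline, a TWIST1 homodimer or a dimer of TWIST1 with TCF3, TCF4 or TCF12, and the dimers with an E-protein are called heterodimers below. Each construct was inserted behind a doxycycline-inducible promoter and induced 16 h before collection. The labels do not say how many clones stand behind each line, nor whether the 3 samples of a group are separate cultures, so p-values measure the spread between these samples, which may be technical.

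Each collagen molecule is a trimer of alpha chains, each chain is the product of its own gene, and many types need fixed combinations of chains. Fibrillar collagens (types I, II, III, V and XI) form the rope-like fibres of connective tissue and cartilage, while type IV chains form the sheet-like network of basement membranes. In the early mouse embryo, the extra-embryonic endoderm lays down a basement membrane rich in type IV collagen and laminin. Mesoderm and mesenchyme are known for fibrillar collagens.

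Totals ran from 6648842 to 15999693 counts per sample, so that 3 counts, taken as the least a sample can show, equal 0.188 to 0.451 CPM (counts scaled to the library total and TMM factors). This floor covers counting error only, while each SD or SE below also holds the spread between samples. The summed level of 8 markers of embryonic stem cells and epiblast averaged 3948 CPM in parental samples, 3569 and 2954 CPM in uninduced and induced monomer samples, 2873 CPM in the homodimer, and 1956, 2813 and 2299 CPM with the TCF3, TCF4 and TCF12 dimers. Pou5f1, which maintains pluripotency, had group means of 419.7 to 619 CPM. The sum of 6 primitive streak markers averaged 206 CPM in the parental line and 18.2 to 34.2 CPM elsewhere, with all 6 lower in each of the other groups. Of all tested genes 4.02% (homodimer) to 12% (TCF3 dimer) were lower than in the parental line. Twist1 averaged 8.11 CPM in parental and 5.07 CPM in uninduced monomer samples, against 613 CPM in the induced monomer, 182 CPM in the homodimer and 39.4 to 55.2 CPM in the heterodimers. Tcf4 averaged 330.4 CPM with the TCF4 dimer and 33.2 to 52.1 CPM in the other groups. Tcf3 did not separate its group (154 CPM, against 157 to 185 CPM elsewhere), and Tcf12 averaged 93.1 CPM in its group but 104 CPM in the TCF3 group. Libraries of these groups are therefore called by their labels below. Sample 1 of the libraries labelled TCF12 dimer stood apart from samples 2 and 3. Its deviations from the mean of these 2 samples went with exon length (Spearman -0.674 across 8939 genes). Samples 2 and 3, each set against a mean that holds sample 1, had 0.628 and 0.666. The 18 samples of the other groups had values from -0.425 to 0.467. The tested collagen genes are long, with a median exon length of 7718.5 bases against 4321 for all tested genes with a length. Called differences of collagen genes from the parental line in the group labelled TCF12 dimer are given with sample 1 and without it, and so are the counts of members called.

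Dimers of basic helix-loop-helix factors bind the E-box, CANNTG. Stretches of 250 bases before the annotated start are shown for 4 collagen genes whose window holds no annotated exon. All 4 were higher with the TCF3 and TCF12 labels than in the parental line. Col5a1 and Col11a1 were also higher with the TCF4 dimer, while Col3a1 and Col23a1 were not called there. The stretches come from RefSeq (GRCm38.p6) and capitals mark each CANNTG, which reads the same way on both strands. Col3a1 lies at chr1:45311288-45311537, Col23a1 at chr11:51289670-51289919, Col5a1 at chr2:27886175-27886424 and Col11a1 at chr3:114030290-114030539, all on the plus strand.
Col3a1: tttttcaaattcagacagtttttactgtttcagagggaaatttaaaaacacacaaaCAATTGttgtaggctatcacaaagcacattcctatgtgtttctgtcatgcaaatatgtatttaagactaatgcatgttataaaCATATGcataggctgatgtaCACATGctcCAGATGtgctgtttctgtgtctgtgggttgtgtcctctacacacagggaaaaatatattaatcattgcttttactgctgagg
Col23a1: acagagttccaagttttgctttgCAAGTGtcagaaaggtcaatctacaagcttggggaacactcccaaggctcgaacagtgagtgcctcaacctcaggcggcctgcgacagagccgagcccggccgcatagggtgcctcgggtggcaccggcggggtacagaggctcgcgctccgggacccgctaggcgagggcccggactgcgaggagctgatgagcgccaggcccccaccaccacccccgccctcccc
Col5a1: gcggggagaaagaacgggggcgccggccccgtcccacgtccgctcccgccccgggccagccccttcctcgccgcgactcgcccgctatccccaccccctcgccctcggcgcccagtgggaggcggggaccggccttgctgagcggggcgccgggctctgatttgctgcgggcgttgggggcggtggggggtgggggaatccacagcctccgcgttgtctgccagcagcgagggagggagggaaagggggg
Col11a1: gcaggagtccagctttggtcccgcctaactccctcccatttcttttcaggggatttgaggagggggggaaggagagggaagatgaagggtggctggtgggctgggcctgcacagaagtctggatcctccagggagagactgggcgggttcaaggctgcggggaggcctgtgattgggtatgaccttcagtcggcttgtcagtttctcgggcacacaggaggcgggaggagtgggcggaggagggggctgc
The Col3a1 window holds 4 E-boxes, which begin 194 (CAATTG), 111 (CATATG), 91 (CACATG) and 82 (CAGATG) bases before the start. Col23a1 has a single one, CAAGTG, at 227 bases, and the windows of Col5a1 and Col11a1 have no match. RefSeq promoters were found for 35 of the 44 members, with 38 start sites. An E-box was present before 19 of these 38 starts (50%), compared with 66.2% of all 32851 starts in the same table. The form CAGATG, itself an E-box and read as CATCTG on the other strand, was found before 7.89% of the collagen starts and 14.4% of all starts. CATATG was found before 2.63% and 3.46%, and CAGCTG before 15.8% and 13.0%. A match is a run of letters in the window and not a measured binding site.

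The most abundant type IV genes share a start region, as they are arranged head to head. Col4a1 (minus strand) and Col4a2 (plus strand) begin at chr8:11312826 and chr8:11312805, so that the annotated genes overlap in the 22 bases of chr8:11312805-11312826, shown on the plus strand.
Col4a2 and Col4a1: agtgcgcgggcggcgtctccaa
Whether the authors counted by strand is not given in the sources used here, so reads from this overlap cannot be assigned to either gene.

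Of the 44 members, 32 passed the filter for testing (edgeR's filterByExpr), and 32 also reached 1 CPM in at least 3 samples. In 14 members a group mean reached at least 10 CPM, in 17 the highest group mean lay between 1 and 10 CPM, and 13 stayed under 1 CPM in every group. Of these 13, Col17a1 was tested, and the other 12 were not: Col15a1, Col24a1, Col6a5, Col20a1, Col28a1, Col6a6, Col9a1, Col4a4, Col4a3, Col8a1, Col10a1 and Col19a1. Their highest group means ran from 0.0547 CPM (Col19a1) to 0.801 CPM (Col15a1), and little can be said of them at this depth. Among them are Col4a3 and Col4a4, type IV chains of the kidney and lung, and Col10a1, the collagen of hypertrophic cartilage.

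Per kilobase of exon, 3 genes stood far above the rest in every group: Col18a1, Col4a1 and Col4a2. In the parental line their levels were 46.5, 33.9 and 17.3 CPM per kb, in this order, and no other member with a group mean of 10 CPM went beyond 2.31 CPM per kb there (Col2a1). In the uninduced monomer line Col4a1 led with 117 CPM per kb, Col4a2 followed with 68.1 and Col18a1 with 54.0. These 3 genes held 83.5% of all collagen counts in the parental line, 92.4% in the uninduced monomer line and 66.8% in the group labelled TCF12 dimer. Collagen genes together took 0.0845% ± 0.00175 of all counts in the parental line (SD, n = 3), 0.178% ± 0.00979 in uninduced and 0.169% ± 0.00315 in induced monomer samples, and 0.0738% ± 0.00439 in the homodimer. The share was 0.147% ± 0.00784 in TCF3-labelled libraries, 0.0685% ± 0.00215 with the TCF4 dimer and 0.0642% ± 0.0122 in those labelled TCF12 dimer, where sample 1 had 0.0501% and samples 2 and 3 had 0.0714% and 0.0712%. The monomer groups and the libraries labelled TCF3 dimer thus lie above the other four, and type IV chains took a larger share of collagen counts in these 3 groups. They made up 45.0% ± 0.966 of collagen counts in parental samples, 72.0% ± 1.61 and 72.8% ± 1.29 in the uninduced and induced monomer, and 65.7% ± 1.33 in TCF3-labelled libraries. In the homodimer they made up 35.0% ± 0.964, with the TCF4 dimer 39.2% ± 0.728 and in TCF12-labelled libraries 40.2% ± 2.56. Fibrillar chains went from 3.62% ± 0.176 of collagen counts in the uninduced monomer to 20.6% ± 0.512 in TCF12-labelled libraries.

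**Figure D1:**
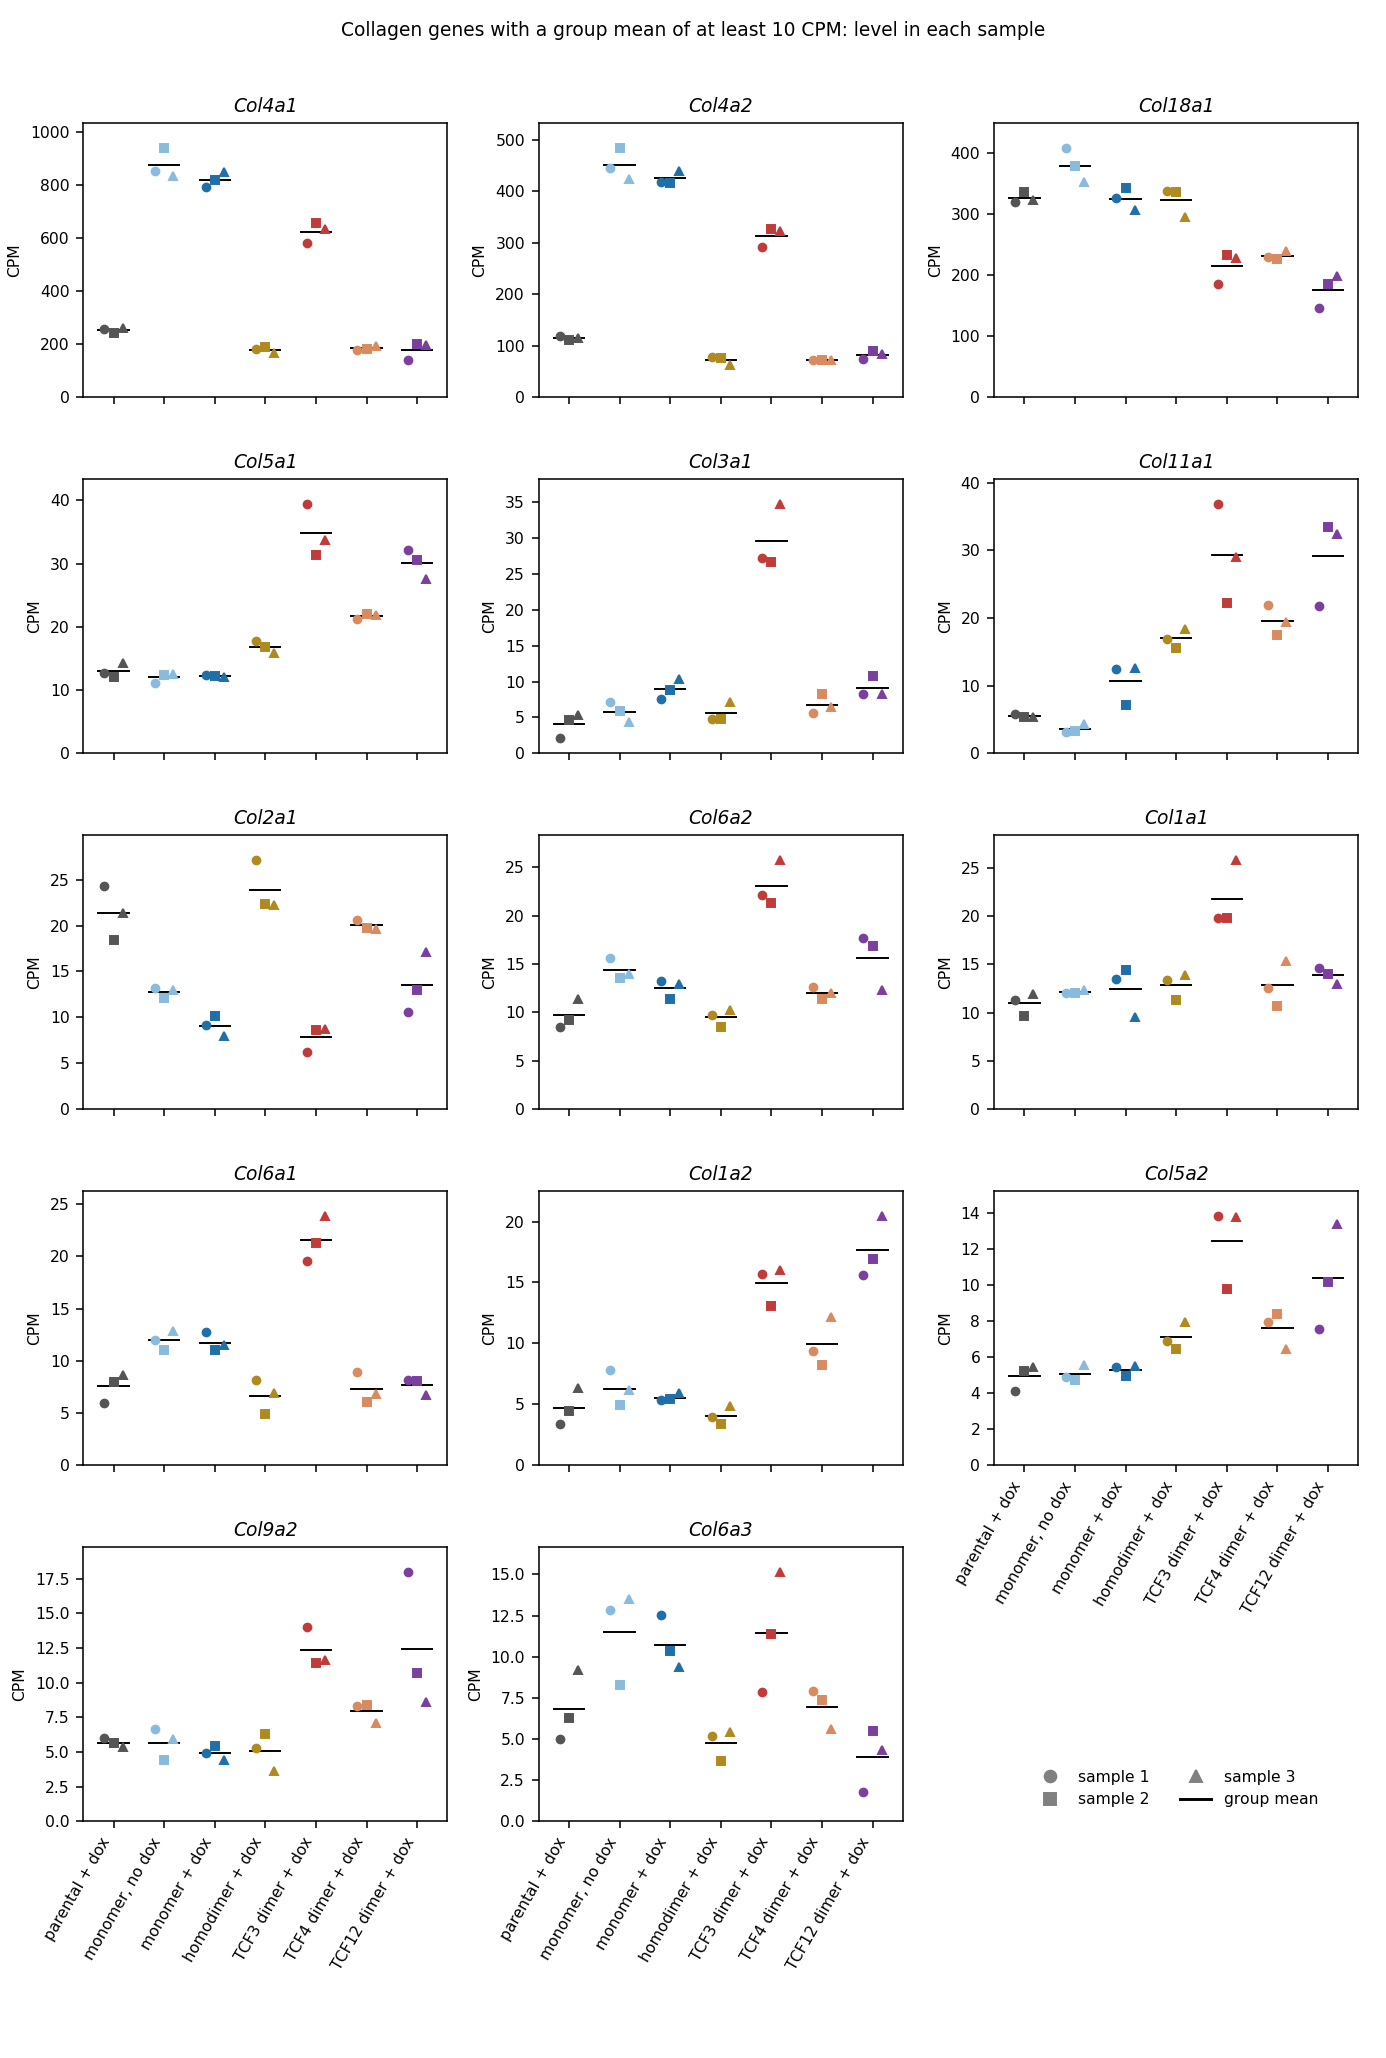
Level of each of the 14 collagen genes with a group mean of at least 10 CPM, in CPM (vertical axis, from 0), in the 7 groups (horizontal axis); symbols are the 3 samples of a group and lines the group means. Col4a1 and Col4a2 are high in both monomer groups and in TCF3-labelled libraries, while Col5a1, Col11a1 and Col1a2 are highest in the libraries labelled TCF3 or TCF12 dimer.

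Each of the 6 other groups was compared with the parental line in a single fit of all 21 samples (edgeR's quasi-likelihood test, Benjamini-Hochberg adjustment over 14311 genes, called at an adjusted p under 0.05). These 6 comparisons share the parental samples. In TCF3-labelled libraries 21 of the 32 tested members were called, 18 higher and 3 lower, which is 65.6% of them. Of all tested genes 28.3% were called, 16.3% higher and 12% lower. Their median log2 difference was 0.93, against 0.01 over all genes. In TCF12-labelled libraries 15 members were called, 10 higher and 5 lower, or 46.9% against 27% of all genes (15.5% higher, 11.5% lower), with a median of 0.34 against 0.02. For the TCF4 dimer the count was 8, with 5 higher and 3 lower (12.9% of all genes called, 7.18% higher and 5.67% lower), and the median was 0.21. The homodimer had the fewest, 6, with 2 higher and 4 lower (8.84% of all genes called, 4.81% higher and 4.02% lower) and a median of -0.12. Uninduced monomer samples had 12 members called, 8 higher and 4 lower (19.9% of all genes called, 10.5% higher and 9.43% lower), and induced monomer samples 13, with 8 higher and 5 lower (20% of all genes called, 10.8% higher and 9.22% lower). The medians of the monomer groups were 0.01 and 0.14, since members moved both ways.

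Left out in turn, single libraries changed some of these calls. Of the 21 calls in TCF3-labelled libraries, 19 were made in each of the 21 fits that leave out a library, and so were 14 of 15 in those labelled TCF12 dimer, 7 of 8 with the TCF4 dimer and 3 of 6 in the homodimer. In the monomer groups it was 6 of 12 without doxycycline and 9 of 13 with it. Without homodimer sample 2 the homodimer count was 3, with 1 higher and 2 lower. Without sample 1 of the libraries labelled TCF12 dimer the counts were 14 in the uninduced monomer, 19 in the induced monomer, 9 in the homodimer, 24 with the TCF3 label, 12 with the TCF4 dimer and 14 with the TCF12 label. Fitted with the parental and TCF12-labelled samples alone, the last comparison called 6 members (5 higher and 1 lower) and no longer Col4a1, Col4a2, Col2a1, Col3a1, Col5a2, Col6a2, Col9a2, Col9a3 or Col14a1 (adjusted p 0.0579 to 0.144). The shares of all tested genes called in these refits are not given here.

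**Figure D2:**
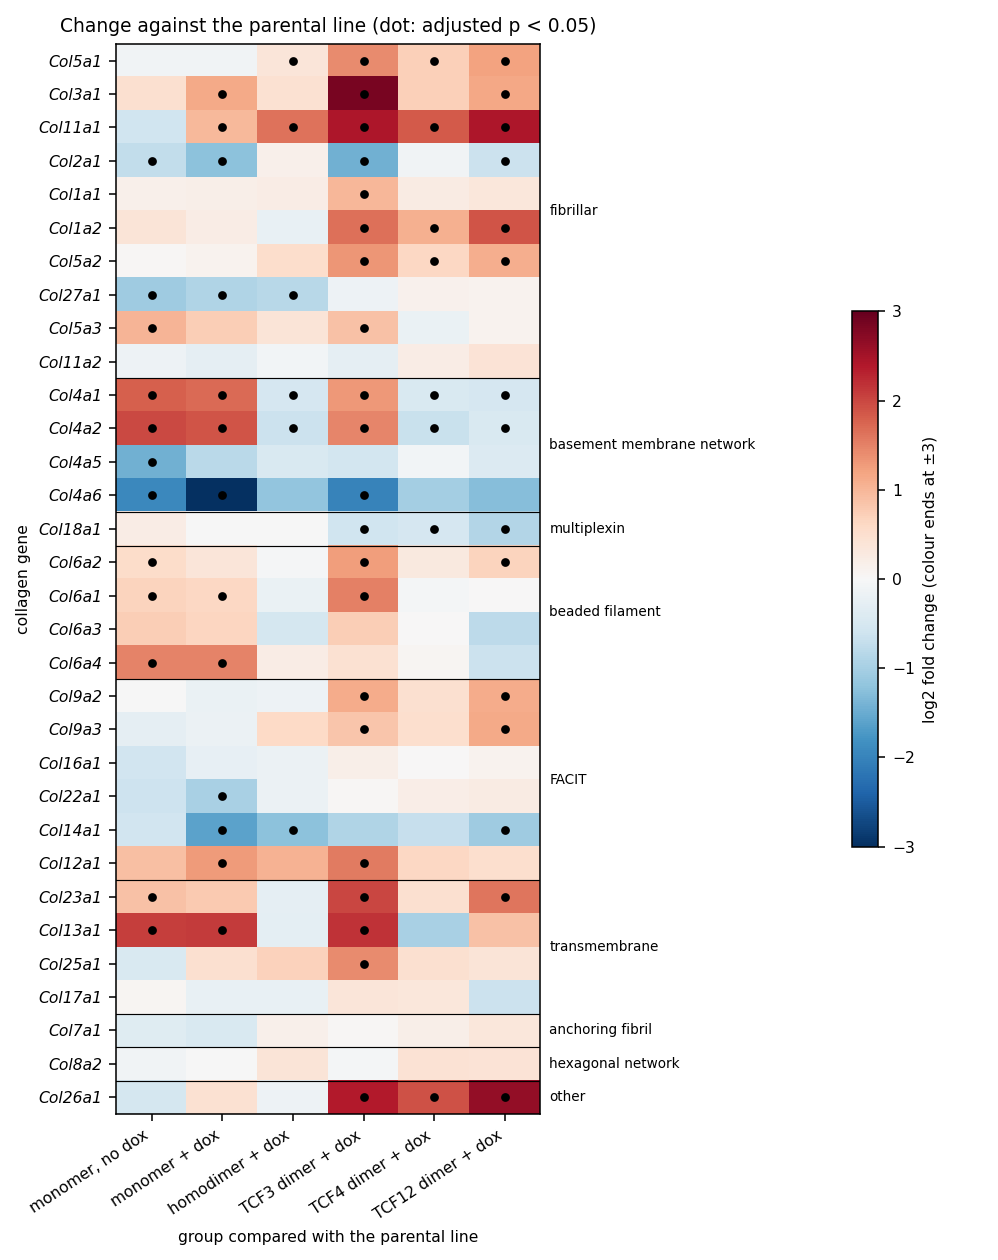
Log2 difference of the 32 tested collagen genes (rows, grouped by class) in each of 6 groups against the parental line (columns); the colour scale ends at 3 in both directions and a dot marks an adjusted p under 0.05. Type IV chains Col4a1 and Col4a2 have dots in all 6 columns, higher in the monomer and TCF3-labelled columns and lower in the other three.

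Col4a1 and Col4a2, whose products form the common trimer of 2 alpha1(IV) chains and 1 alpha2(IV) chain in basement membranes, had the widest spread of levels in CPM and were called in all 6 comparisons with the parental line. Col4a1 (chr8:11198423-11312826, minus strand) stood at 256, 243 and 261 CPM in the parental samples, at 853, 937 and 833 CPM in uninduced and at 791, 817 and 849 CPM in induced monomer samples. It stood at 182, 188 and 167 CPM in the homodimer, 581, 656 and 634 CPM in TCF3-labelled libraries, 177, 184 and 195 CPM with the TCF4 dimer, and 139.6, 200.04 and 198 CPM in those labelled TCF12 dimer. The levels fall into a high set (monomer with and without doxycycline, TCF3 label), the parental samples in between, and a low set, with no overlap between the sets. Against the parental line, Col4a1 was higher by 1.79 ± 0.11 (log2, SE) in the uninduced monomer (adjusted p = 9.73e-10), by 1.69 ± 0.11 in the induced monomer (adjusted p = 1.4e-09) and by 1.30 ± 0.10 in TCF3-labelled libraries (adjusted p = 2.05e-08). The differences were -0.50 ± 0.10 in the homodimer (adjusted p = 0.00322), -0.45 ± 0.10 with the TCF4 dimer (adjusted p = 0.0055) and -0.50 ± 0.10 with the TCF12 label (adjusted p = 0.00161), the last being -0.35 ± 0.06 without sample 1.

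Col4a2 (chr8:11312805-11449287, plus strand) followed the same order of sets. Its levels were 118, 110.5 and 114 CPM in parental samples, 446, 483 and 423 CPM in uninduced and 418, 417 and 439 CPM in induced monomer samples. They were 78.4, 76.5 and 62.9 CPM in the homodimer, 291, 327 and 322 CPM with the TCF3 label, 73.1, 71.8 and 72.0 CPM with the TCF4 dimer, and 74.5, 90.3 and 84.3 CPM with the TCF12 label. Again the 3 lower groups did not overlap the parental samples. The log2 differences from the parental line were 1.98 ± 0.09 and 1.89 ± 0.09 in the uninduced and induced monomer and 1.46 ± 0.09 with the TCF3 label (adjusted p at most 3.89e-10). In the homodimer, the TCF4 dimer and the TCF12-labelled group they were -0.66 ± 0.09, -0.66 ± 0.09 and -0.46 ± 0.09, with adjusted p of 3.27e-05, 2.12e-05 and 0.000604, and the last was -0.39 ± 0.07 without sample 1. In a bulk sample, fewer cells of a type and less RNA per cell cannot be told apart.

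The uninduced monomer line already differed from the parental line in these chains before any doxycycline was given, and doxycycline made no called difference within the monomer line (Col4a1 -0.09 ± 0.10, adjusted p = 0.964, and Col4a2 -0.09 ± 0.08, adjusted p = 0.945). Set against the uninduced monomer in place of the parental line, the libraries labelled TCF3 dimer were lower in Col4a1 (-0.49) and Col4a2 (-0.52). Line and drug both differ between the uninduced monomer and the parental samples, and their parts cannot be told apart here. Most markers of parietal and primitive endoderm moved with the type IV chains. The summed level of 15 markers of parietal and primitive endoderm (the list holds laminin chains Lama1, Lamb1 and Lamc1 with Nid1, Sparc, Sox17, Sox7, Gata4 and Gata6) ran from 1246 to 1296 CPM in the parental samples. It was 3182 to 3579 CPM in the uninduced and 3189 to 3516 CPM in the induced monomer, and 2321 to 2687 CPM with the TCF3 label. In the homodimer it was 877 to 921 CPM, with the TCF4 dimer 869 to 930.3 CPM and with the TCF12 label 753 to 980.3 CPM. Against the parental line, 11, 11 and 12 of the 15 markers were higher and 1, 1 and 2 lower in the uninduced monomer, induced monomer and TCF3-labelled groups. In the homodimer, the TCF4 dimer and the TCF12-labelled group 10 of 15 were lower in each, and 1, 2 and 2 were higher. Of all tested genes 10.5%, 10.8% and 16.3% were higher in the first 3 of these groups, and 4.02%, 5.67% and 11.5% lower in the last 3. No marker was at 0 in any group. Of 6 visceral endoderm markers 5 were tested, and 3 were higher in each of the monomer and TCF3-labelled groups, with 1 lower with the TCF3 label. With the TCF4 dimer and the TCF12 label 4 and 3 were lower, while in the homodimer 0 were called higher and 0 lower. The sum of the 6 averaged 197 CPM in the parental line, and most of it was Cubn. Cubn, an endocytic receptor of visceral endoderm, averaged 160 CPM in parental samples, 894, 796 and 419.7 CPM in the monomer and TCF3-labelled groups and 56.1 to 106 CPM in the other three. Afp, a defining marker, stayed at 0.26 to 0.82 CPM. The part of these markers in the type IV result was not tested.

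**Figure D3:**
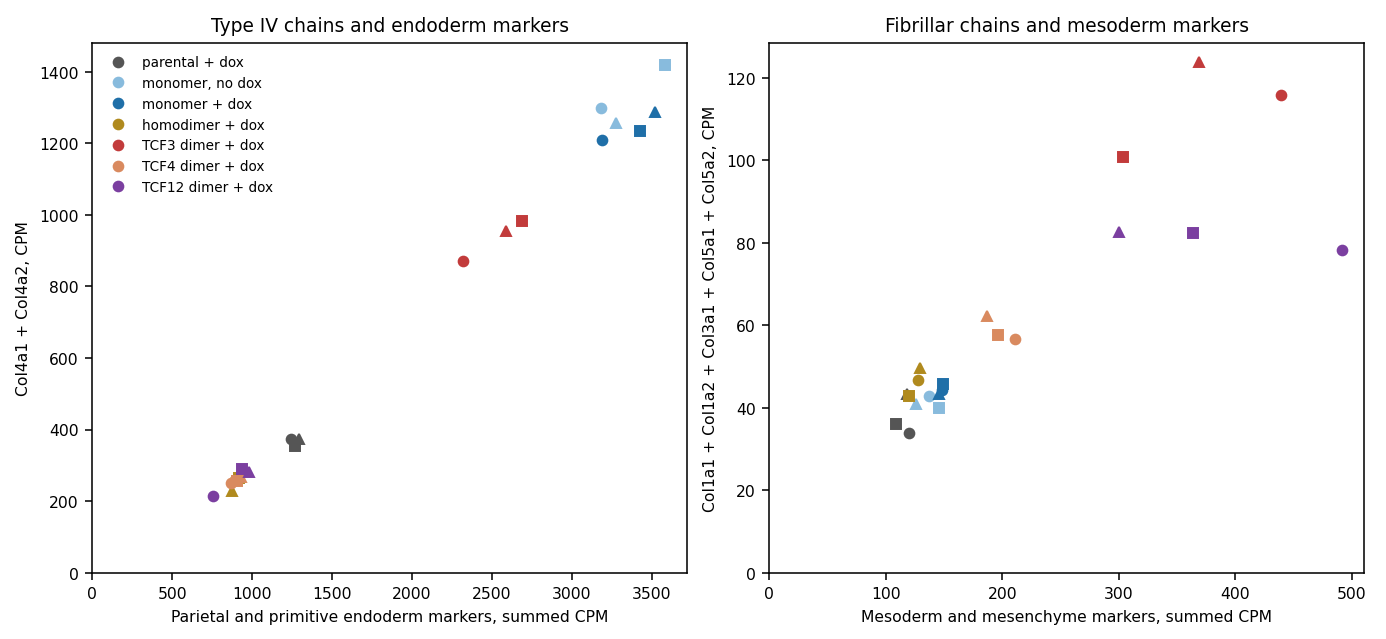
Summed CPM of Col4a1 and Col4a2 against that of 15 endoderm markers (left), and summed CPM of 5 fibrillar genes against that of 10 mesoderm and mesenchyme markers (right), 1 point per sample. Both monomer groups and the TCF3-labelled libraries are at the upper right of the left panel, and the TCF3- and TCF12-labelled libraries are to the right in the right panel.

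The X-linked pair Col4a6 and Col4a5, which encodes the chains of basement membranes in smooth muscle and other specialised sites, stood at much lower levels. Col4a6 averaged 2.28 ± 0.785 CPM in the parental line (SD, n = 3), 0.606 ± 0.198 CPM in the uninduced and 0.182 ± 0.165 CPM in the induced monomer, and 0.563 ± 0.147 CPM with the TCF3 label. In the homodimer, the TCF4 dimer and the TCF12-labelled group it averaged 0.976 ± 0.52, 1.07 ± 0.499 and 0.875 ± 0.694 CPM, and these were not called. It was lower than in the parental line by 1.94 ± 0.57 in the uninduced monomer (log2; adjusted p = 0.0197) and 3.53 ± 0.71 in the induced monomer (adjusted p = 0.00118), and by 1.99 ± 0.53 with the TCF3 label (adjusted p = 0.00752). The call in the uninduced monomer was lost without parental sample 2 (adjusted p = 0.0955) and without uninduced monomer sample 2 or 3 (adjusted p = 0.0931 and 0.0633). Several of these group means lie near the floor of 3 counts, so the sizes are imprecise. Col4a5 was called in the uninduced monomer only, with 1.30 ± 0.282 CPM against 3.67 ± 1.02 CPM (log2 -1.45 ± 0.32, adjusted p = 0.00263), and the induced monomer had 2.08 ± 0.125 CPM (adjusted p = 0.0533). The difference between these monomer groups was not called for Col4a5 (adjusted p = 0.661).

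Col18a1, whose product sits in basement membranes and carries endostatin at its end, was the member with the highest level per kilobase in the parental line. Its levels (chr10:77052178-77166548, minus strand) were 319.7, 336 and 323 CPM in the parental samples, 407, 378 and 352 CPM and 326, 342 and 307 CPM in the uninduced and induced monomer, and 338, 336 and 296 CPM in the homodimer. The libraries labelled TCF3 dimer had 185, 233 and 228 CPM, the TCF4 dimer 229, 226 and 239 CPM, and those labelled TCF12 dimer 145, 185 and 198 CPM. All 9 heterodimer samples lay below the 12 others. Compared with the parental line Col18a1 was lower by 0.60 ± 0.10 (log2) with the TCF3 label (adjusted p = 0.000191), by 0.49 ± 0.10 with the TCF4 dimer (adjusted p = 0.00251) and by 0.89 ± 0.10 with the TCF12 label (adjusted p = 3.28e-06). Without sample 1 the last was -0.77 ± 0.08. Unlike the type IV chains, Col18a1 was not called in either monomer group (0.22 ± 0.10, adjusted p = 0.162 and -0.01 ± 0.10, adjusted p = 0.977).

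Of 10 tested fibrillar genes, 7 were higher than in the parental line with the TCF3 label and Col2a1 was lower. The highest group mean was that of the TCF3 or TCF12 label in each of the 10 except Col2a1 (homodimer), Col27a1 (TCF4 dimer) and Col5a3 (uninduced monomer). Col3a1 (chr1:45311538-45349706, plus strand) encodes the homotrimer of type III collagen, found with type I in skin and vessels. It had 2.18, 4.66 and 5.35 CPM in the parental line, 7.16, 5.85 and 4.40 CPM and 7.51, 8.89 and 10.4 CPM in the uninduced and induced monomer, and 4.86, 4.76 and 7.20 CPM in the homodimer. With the TCF3 label it had 27.3, 26.7 and 34.7 CPM, with the TCF4 dimer 5.58, 8.30 and 6.45 CPM, and with the TCF12 label 8.29, 10.7 and 8.23 CPM. The TCF3-labelled libraries stand clear of all 18 others, more than 2 times above the next highest sample. The log2 difference from the parental line was 2.85 ± 0.24 there (adjusted p = 4.18e-08), 1.13 ± 0.27 in the induced monomer (adjusted p = 0.00441) and 1.16 ± 0.26 with the TCF12 label (adjusted p = 0.00301; 1.21 ± 0.24 without sample 1). The direct difference between the TCF3 and TCF12 labels was 1.70 ± 0.21 (adjusted p = 1.82e-05, 1.63 ± 0.17 without sample 1), and that between the TCF3 label and the TCF4 dimer 2.13 ± 0.22 (adjusted p = 1.09e-06). A predicted gene, Gm47302, overlaps Col3a1, so part of its count is uncertain.

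Types V and XI are minor fibrillar collagens that set fibre diameter, and their genes Col5a1, Col5a2 and Col11a1 were higher than in the parental line in each heterodimer group. Col5a1 (chr2:27886425-28039514, plus strand) had 12.8, 12.1 and 14.3 CPM in the parental line, 11.1, 12.4 and 12.5 CPM and 12.4, 12.2 and 12.04 CPM in the monomer groups, and 17.7, 16.9 and 15.8 CPM in the homodimer. It reached 39.3, 31.4 and 33.7 CPM with the TCF3 label, 21.2, 22.0 and 21.8 CPM with the TCF4 dimer and 32.2, 30.6 and 27.5 CPM with the TCF12 label. The order is monomer and parental, homodimer, TCF4 dimer, then the TCF12 and TCF3 labels, which overlap. Its log2 differences from the parental line were 1.41 ± 0.10 (TCF3 label), 0.73 ± 0.10 (TCF4 dimer) and 1.20 ± 0.10 (TCF12 label, 1.15 ± 0.10 without sample 1), with adjusted p of 2.57e-09, 3.23e-05 and 3.63e-08. The smaller difference of the homodimer, 0.36 ± 0.10 (adjusted p = 0.029), was lost without parental sample 1 or 2 or homodimer sample 1 or 2 (adjusted p 0.0771 to 0.141). The annotated genes 2810430I11Rik and Gm13372 overlap Col5a1, so part of its count is uncertain.

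Col11a1 (chr3:114030540-114220718, plus strand), a chain of cartilage and early mesenchyme, had 5.78, 5.31 and 5.35 CPM in parental samples and 3.09, 3.24 and 4.40 CPM in uninduced monomer samples. It was higher in each of the other groups, with 12.4, 7.09 and 12.6 CPM in the induced monomer, 16.9, 15.6 and 18.4 CPM in the homodimer, 36.8, 22.2 and 29.0 CPM with the TCF3 label, 21.9, 17.5 and 19.5 CPM with the TCF4 dimer and 21.8, 33.4 and 32.4 CPM with the TCF12 label. Every induced TWIST1 sample lies above all parental and uninduced samples. The log2 differences from the parental line ran from 0.96 ± 0.24 in the induced monomer (adjusted p = 0.00738) through 1.63 ± 0.23 in the homodimer (adjusted p = 8.24e-05) and 1.84 ± 0.23 with the TCF4 dimer (adjusted p = 1.16e-05) to 2.42 ± 0.22 with both the TCF3 and TCF12 labels (adjusted p = 1.36e-07 and 1.89e-07). For the TCF12 label it was 2.58 ± 0.18 without sample 1. Col11a1 was also the single collagen gene called between induced and uninduced monomer, where it was higher by 1.55 ± 0.26 (adjusted p = 0.00176). In that comparison 1 of 32 members was called, and 2% of all tested genes were (1.52% higher). Without sample 1 of the TCF12-labelled libraries 3 members were called there, Col11a1 (1.54 ± 0.24) with Col18a1 (-0.23 ± 0.07, adjusted p = 0.0372) and Col2a1 (-0.49 ± 0.15, adjusted p = 0.0433). Its partner chain Col11a2 reached at most 1.11 CPM in a group mean and was called in no comparison with the parental line.

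Col5a2 (chr1:45374321-45503282, minus strand) had 4.14, 5.20 and 5.45 CPM in the parental line, 4.88, 4.70 and 5.57 CPM and 5.46, 4.95 and 5.48 CPM in the monomer groups, and 6.91, 6.46 and 7.92 CPM in the homodimer. It had 13.8, 9.80 and 13.7 CPM with the TCF3 label, 7.94, 8.38 and 6.45 CPM with the TCF4 dimer and 7.55, 10.2 and 13.4 CPM with the TCF12 label. All heterodimer samples lie above the parental ones, but those of the TCF4 dimer overlap the homodimer. The log2 differences from the parental line were 1.33 ± 0.19 (adjusted p = 2.79e-05), 0.61 ± 0.20 (adjusted p = 0.0483) and 1.08 ± 0.19 (adjusted p = 0.000423) in this order, the last being 1.25 ± 0.17 without sample 1. The TCF4 call is at the threshold and was lost when any of 17 of the 21 libraries was left out (adjusted p up to 0.196). The other type V chain, Col5a3, averaged 2.35 ± 0.608 CPM in the parental line, 4.84 ± 1.23 CPM in the uninduced monomer (log2 1.02 ± 0.26, adjusted p = 0.0072) and 4.31 ± 1.20 CPM with the TCF3 label (0.87 ± 0.25, adjusted p = 0.0127). The first of these was lost without uninduced monomer sample 2 (adjusted p = 0.0677), the second without parental sample 1 or 2 or TCF3-labelled sample 3 (adjusted p 0.0552 to 0.0859).

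Type I collagen is the main fibre of bone, skin and tendon. Both of its chains were higher than in the parental line with the TCF3 label, while with the TCF4 dimer and the TCF12 label Col1a2 was called and Col1a1 was not. Whether the responses of these genes differ was not tested. Col1a2 (chr6:4504814-4541544, plus strand) had 3.38, 4.44 and 6.36 CPM in the parental line, 7.81, 4.91 and 6.15 CPM and 5.35, 5.40 and 5.91 CPM in the monomer groups, and 3.99, 3.41 and 4.84 CPM in the homodimer. With the TCF3 label it had 15.7, 13.1 and 16.0 CPM, with the TCF4 dimer 9.36, 8.21 and 12.2 CPM, and with the TCF12 label 15.6, 16.9 and 20.4 CPM. Each heterodimer sample lies above every other sample. The log2 differences from the parental line were 1.65 ± 0.20 (TCF3 label, adjusted p = 5.09e-06), 1.07 ± 0.21 (TCF4 dimer, adjusted p = 0.00146) and 1.89 ± 0.20 (TCF12 label, adjusted p = 1.19e-06, 1.97 ± 0.18 without sample 1). Col1a1 (chr11:94936224-94953042, plus strand) had 11.3, 9.65 and 11.9 CPM in the parental line, 12.04, 12.02 and 12.3 CPM and 13.5, 14.4 and 9.57 CPM in the monomer groups, and 13.4, 11.3 and 13.9 CPM in the homodimer. It had 19.8, 19.8 and 25.8 CPM with the TCF3 label, 12.6, 10.7 and 15.4 CPM with the TCF4 dimer and 14.6, 14.0 and 13.0 CPM with the TCF12 label. Only the TCF3-labelled libraries differed from the parental line by the test, by 0.99 ± 0.15 (adjusted p = 7.19e-05), while the TCF4 dimer and the TCF12 label gave 0.24 ± 0.16 (adjusted p = 0.406) and 0.34 ± 0.16 (adjusted p = 0.123, 0.30 ± 0.16 without sample 1). Direct comparisons of Col1a1 gave 0.75 ± 0.15 between the TCF3 label and the TCF4 dimer (adjusted p = 0.00126) and 0.65 ± 0.15 between the TCF3 and TCF12 labels (adjusted p = 0.00534, 0.69 ± 0.14 without sample 1).

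Type I collagen is usually a trimer of 2 alpha1(I) chains and 1 alpha2(I) chain. The ratio of Col1a1 to Col1a2 CPM averaged 2.47 ± 0.784 in the parental line (SD, n = 3), 2.00 ± 0.453 and 2.27 ± 0.57 in the uninduced and induced monomer, and 3.18 ± 0.267 in the homodimer. It averaged 1.46 ± 0.179 with the TCF3 label, 1.30 ± 0.0398 with the TCF4 dimer and 0.80 ± 0.151 with the TCF12 label, where sample 1 had the highest of the 3 values, 0.933. The TCF4 dimer and TCF12 label fall below all samples of the 4 groups without an E-protein, and the TCF3 label overlaps them at its upper end (1.61 against a lowest value of 1.54). Col4a1 over Col4a2 varied far less, with group means from 1.93 ± 0.0347 in the induced monomer to 2.56 ± 0.141 with the TCF4 dimer. For Col5a1 over Col5a2 the means went from 2.31 ± 0.133 in the induced monomer to 3.11 ± 1.11 with the TCF12 label, and the groups overlapped. These ratios are per count and not per molecule, since the chains differ in length.

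**Figure D4:**
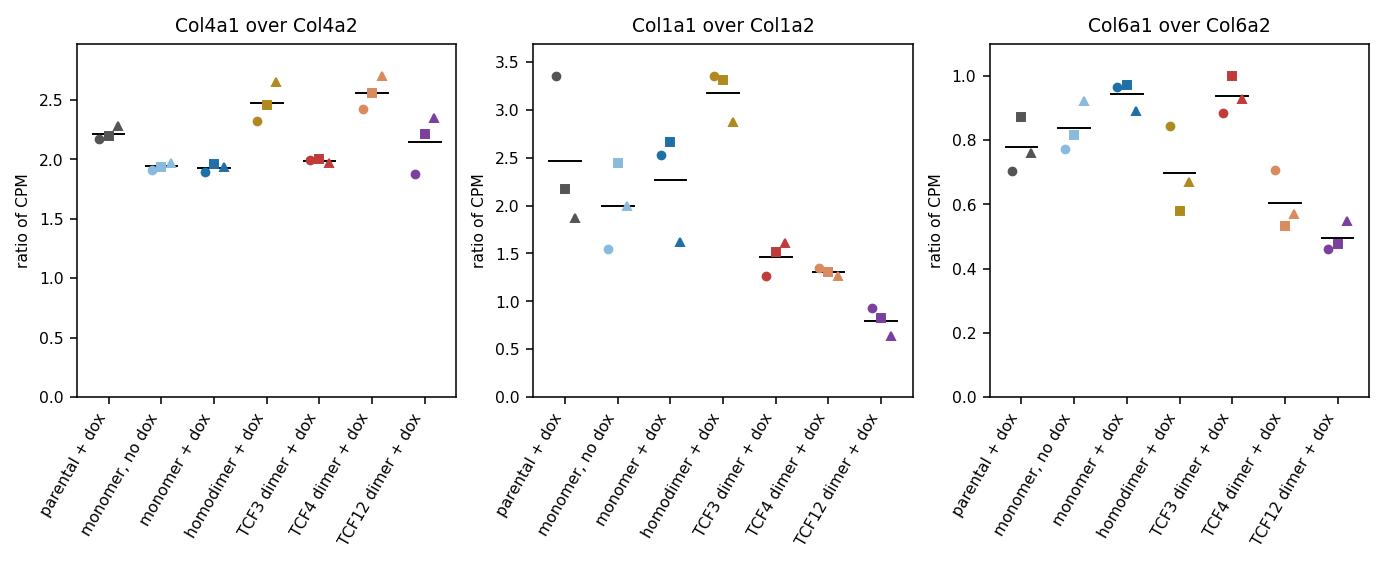
Ratio of CPM of chains that share a trimer, in each sample (symbols as in the plot of levels) with the group mean as a line; the vertical axes start at 0. Col1a1 over Col1a2 is lowest with the TCF4 dimer and the TCF12 label, and Col6a1 over Col6a2 is lowest in these groups as well.

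Col2a1 (chr15:97975602-98004695, minus strand), the major collagen of cartilage and notochord, went down with the TCF3 and TCF12 labels, where several other fibrillar genes went up. It was also lower in both monomer groups. With the TCF4 dimer, where 4 other fibrillar genes were higher, it was not called. It had 24.3, 18.4 and 21.4 CPM in parental samples, 13.2, 12.1 and 13.0 CPM in the uninduced and 9.22, 10.1 and 7.95 CPM in the induced monomer, and 27.1, 22.4 and 22.2 CPM in the homodimer. With the TCF3 label it had 6.28, 8.65 and 8.78 CPM, with the TCF4 dimer 20.6, 19.8 and 19.6 CPM, and with the TCF12 label 10.6, 13.0 and 17.1 CPM. The homodimer and TCF4 dimer overlap the parental line, and the other four groups lie below it. The log2 differences were -0.75 ± 0.16 and -1.23 ± 0.16 in the uninduced and induced monomer (adjusted p = 0.00215 and 1.71e-05), -1.43 ± 0.16 with the TCF3 label (adjusted p = 1.58e-06) and -0.65 ± 0.15 with the TCF12 label (adjusted p = 0.00446, -0.51 ± 0.13 without sample 1). Sox9, a regulator of Col2a1 in cartilage, averaged 1.38 CPM in the parental line, 4.18 CPM in the induced monomer and 7.09 to 15.3 CPM in the dimer groups, and the cartilage markers Acan and Matn1 averaged at most 3.01 and 0.308 CPM in any group. Col27a1, a cartilage fibrillar gene, averaged 6.88 ± 0.62 CPM in the parental line and was lower in the uninduced monomer (3.28 ± 0.163 CPM, log2 -1.07 ± 0.21, adjusted p = 0.00108), the induced monomer (3.67 ± 1.15 CPM, -0.90 ± 0.20, adjusted p = 0.00315) and the homodimer (3.89 ± 0.287 CPM, -0.82 ± 0.20, adjusted p = 0.011). The homodimer call was lost without parental sample 3 or homodimer sample 2 (adjusted p = 0.0528 and 0.0546). In the heterodimers Col27a1 averaged 6.14 to 7.41 CPM.

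Markers of mesoderm and mesenchyme were higher in the heterodimer groups. The embryonic stem cell and primitive streak sums given above were lower than in the parental line in all 6 other groups. The 8 stem cell markers did not all fall. In the uninduced and induced monomer 4 and 4 were called higher and 2 and 3 lower. In the homodimer 3 were higher and 3 lower, and with the TCF3 label 3 and 4. With the TCF4 dimer and the TCF12 label 7 were lower in each and 0 higher. The summed level of 10 mesoderm and mesenchyme markers (Vim, Snai1, Snai2, Pdgfra, Kdr, Prrx1, Hand1, Hand2, Foxf1 and Meox1) was 109 to 120.1 CPM in the parental samples, 126 to 146 CPM and 146 to 149 CPM in the uninduced and induced monomer, and 119.8 to 129 CPM in the homodimer. It was 304 to 439 CPM with the TCF3 label, 187 to 210.4 CPM with the TCF4 dimer and 299.7 to 491 CPM with the TCF12 label. Of the 9 markers tested, 8, 7 and 9 were higher than in the parental line in these 3 groups, 2 in each monomer group, and in the homodimer 1 was higher and 1 lower. Of all tested genes 16.3%, 7.18% and 15.5% were higher with the TCF3 label, the TCF4 dimer and the TCF12 label. In the same groups 12%, 5.67% and 11.5% were lower. In the uninduced monomer, induced monomer and homodimer 10.5%, 10.8% and 4.81% were higher and 9.43%, 9.22% and 4.02% lower. Hand2 was at 0 in the uninduced monomer. The sum of 5 fibroblast markers averaged 27.3 CPM in the parental line, 38.8, 33.1 and 41.6 CPM with the TCF3, TCF4 and TCF12 dimers and 22.5 to 25.3 CPM in the rest. Of the 4 tested, 2 were higher in each heterodimer group and 1, 1 and 2 were lower, while Lum stayed at 0.10 to 0.395 CPM. The sum of 5 skeletal and cartilage markers averaged 5.31 CPM in parental samples, 3.76 and 7.14 CPM in uninduced and induced monomer samples, 12.5 CPM in the homodimer, and 18.6, 9.49 and 14.4 CPM with the TCF3, TCF4 and TCF12 dimers. Only 2 of the 5 were tested, and 1 was higher in the induced monomer and in each dimer group. With the TCF12 label the other was lower, and in the uninduced monomer 0 were called. Sox9, described above, made up most of the sum in the dimer groups. Runx2 and Sp7 stayed under 1 CPM in every group. The part of all these markers in the fibrillar result was not tested.

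Type VI collagen forms beaded filaments around cells from the products of Col6a1, Col6a2 and Col6a3. Col6a1 (chr10:76708792-76726168, minus strand) had 6.00, 8.02 and 8.68 CPM in the parental line, 12.04, 11.1 and 12.9 CPM and 12.7, 11.0 and 11.5 CPM in the uninduced and induced monomer, and 8.20, 4.94 and 6.89 CPM in the homodimer. It had 19.6, 21.3 and 23.8 CPM with the TCF3 label, 8.89, 6.07 and 6.87 CPM with the TCF4 dimer and 8.18, 8.04 and 6.78 CPM with the TCF12 label. Samples of the TCF3 label stand above all others, the monomer groups come next, and the rest overlap the parental line. The log2 difference was 1.51 ± 0.17 with the TCF3 label (adjusted p = 1.2e-06), 0.66 ± 0.18 in the uninduced (adjusted p = 0.011) and 0.63 ± 0.18 in the induced monomer (adjusted p = 0.0141). The monomer calls were lost without parental sample 1 (adjusted p = 0.07 and 0.0888), and also without uninduced sample 3 (adjusted p = 0.0544) and induced sample 1 (adjusted p = 0.0661), respectively.

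Col6a2 (chr10:76595762-76623630, minus strand) had 8.50, 9.21 and 11.4 CPM in the parental line, 15.6, 13.6 and 14.0 CPM and 13.2, 11.4 and 12.9 CPM in the monomer groups, and 9.71, 8.53 and 10.3 CPM in the homodimer. It had 22.2, 21.3 and 25.7 CPM with the TCF3 label, 12.6, 11.4 and 12.04 CPM with the TCF4 dimer and 17.7, 16.8 and 12.3 CPM with the TCF12 label. It was higher than in the parental line by 1.24 ± 0.14 with the TCF3 label (adjusted p = 1.14e-06), by 0.68 ± 0.14 with the TCF12 label (adjusted p = 0.00146, 0.58 ± 0.14 without sample 1) and by 0.56 ± 0.14 in the uninduced monomer (adjusted p = 0.00891, lost without parental sample 1 at 0.0533). The TCF12-labelled libraries thus differed from the parental line in Col6a2 but not by the test in Col6a1 (0.01 ± 0.18, adjusted p = 0.962, -0.04 ± 0.18 without sample 1), and the ratio of Col6a1 to Col6a2 was 0.50 ± 0.0465 there against 0.78 ± 0.0842 in the parental line and 0.94 ± 0.0441 in the induced monomer. Whether Col6a1 and Col6a2 differ in response was not tested. Col6a3 (chr1:90765923-90843971, minus strand) had 5.01, 6.29 and 9.18 CPM in the parental line, 12.9, 8.26 and 13.5 CPM and 12.5, 10.4 and 9.35 CPM in the monomer groups, and 5.18, 3.68 and 5.45 CPM in the homodimer. It had 7.85, 11.4 and 15.1 CPM with the TCF3 label, 7.94, 7.36 and 5.60 CPM with the TCF4 dimer and 1.78, 5.50 and 4.36 CPM with the TCF12 label. No group was called against the parental line (adjusted p 0.0719 to 0.991), whose samples spread widely. Against the induced monomer, Col6a3 was lower in the homodimer (-1.18 ± 0.32, adjusted p = 0.0131) and with the TCF12 label (-1.43 ± 0.32, adjusted p = 0.00195, and -1.11 ± 0.26 without sample 1), the former lost without induced monomer sample 1 or homodimer sample 2 (adjusted p = 0.0605 and 0.0761). Col6a4 averaged 0.562 ± 0.207 CPM in the parental line and 1.54 ± 0.487 and 1.60 ± 0.544 CPM in the monomer groups (log2 1.48 ± 0.47 in both, adjusted p = 0.0321 and 0.0314). Both calls were lost without any of the parental samples and without several monomer samples (adjusted p up to 0.136 and 0.15), and the predicted genes Gm36993 and Gm47575 overlap Col6a4, so its count is uncertain.

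FACIT collagens decorate the surface of fibres. Col9a2 (chr4:121039385-121055322, plus strand), a chain of type IX collagen, had 6.00, 5.64 and 5.35 CPM in the parental line, 6.67, 4.39 and 5.96 CPM and 4.89, 5.40 and 4.41 CPM in the monomer groups, and 5.29, 6.28 and 3.60 CPM in the homodimer. It had 14.0, 11.4 and 11.6 CPM with the TCF3 label, 8.34, 8.38 and 7.06 CPM with the TCF4 dimer and 17.9, 10.7 and 8.64 CPM with the TCF12 label. Each heterodimer sample exceeds every other sample. The difference from the parental line was 1.12 ± 0.23 (log2) with the TCF3 label (adjusted p = 0.000995) and 1.12 ± 0.23 with the TCF12 label (adjusted p = 0.00154, 0.77 ± 0.17 without sample 1). With the TCF4 dimer it was 0.48 ± 0.24 (adjusted p = 0.226). Col9a3, its partner chain, averaged 4.50 ± 0.402 CPM in the parental line, 7.999 ± 0.949 CPM with the TCF3 label (0.83 ± 0.20, adjusted p = 0.00412) and 9.96 ± 3.47 CPM with the TCF12 label (1.13 ± 0.20, adjusted p = 0.00036, 0.84 ± 0.17 without sample 1). The count of Col9a3 is uncertain where Tcfl5 overlaps it. The third chain of type IX, Col9a1, was too low to test.

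Other FACIT genes were low. Col14a1 averaged 1.73 ± 0.362 CPM in the parental line and was lower in the induced monomer (0.555 ± 0.296 CPM, -1.62 ± 0.39, adjusted p = 0.00556), the homodimer (0.724 ± 0.271 CPM, -1.23 ± 0.36, adjusted p = 0.0379) and with the TCF12 label (0.806 ± 0.218 CPM, -1.07 ± 0.34, adjusted p = 0.0282). The homodimer call was lost in 5 of 21 fits that leave out a library (adjusted p up to 0.178) and the TCF12 call in 4 (adjusted p up to 0.096), among them that without sample 1 (-0.94 ± 0.37). Col12a1 averaged 0.492 ± 0.146 CPM in the parental line and was higher with the TCF3 label (1.49 ± 0.432 CPM, 1.56 ± 0.35, adjusted p = 0.00199) and in the induced monomer (1.22 ± 0.236 CPM, 1.29 ± 0.38, adjusted p = 0.0194), the latter lost without parental sample 1 or induced monomer sample 1 (adjusted p = 0.109 and 0.103). Col22a1 had 1.84 ± 0.297 CPM in the parental line and was lower in the induced monomer (0.935 ± 0.467 CPM, -0.98 ± 0.33, adjusted p = 0.0399), a call lost in 5 of 21 fits (adjusted p up to 0.258), and a predicted gene, Gm16308, overlaps it. Col16a1 had group means of 1.28 to 2.21 CPM and no call.

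Of the 4 tested transmembrane collagens, which span the cell membrane and can be shed, Col23a1 and Col13a1 were each called in 3 comparisons with the parental line, Col25a1 in 1 and Col17a1 in none. Col23a1 averaged 2.26 ± 0.227 CPM in parental samples, 4.09 ± 0.741 and 3.93 ± 0.154 CPM in the monomer groups and 1.87 ± 0.519 CPM in the homodimer. With the TCF3 label it reached 9.08 ± 1.59 CPM (log2 2.00 ± 0.26, adjusted p = 9.43e-06) and with the TCF12 label 7.03 ± 2.46 CPM (1.61 ± 0.27, adjusted p = 0.000209, 1.30 ± 0.24 without sample 1), while the TCF4 dimer had 3.20 ± 1.07 CPM (0.48 ± 0.29, adjusted p = 0.349). The uninduced monomer call (0.88 ± 0.30, adjusted p = 0.0429) was lost in 11 of 21 fits (adjusted p up to 0.182). Col13a1 had 0.495 ± 0.165 CPM in parental samples, 2.18 ± 0.726 and 2.15 ± 0.692 CPM in the uninduced and induced monomer and 2.25 ± 0.533 CPM with the TCF3 label, with log2 differences of 2.07 ± 0.43, 2.09 ± 0.43 and 2.17 ± 0.41 (adjusted p = 0.00189, 0.00138 and 0.000491). The homodimer and the TCF4 dimer had 0.41 ± 0.22 and 0.254 ± 0.0813 CPM, and the TCF12 label had 0.937 ± 0.403 CPM (0.87 ± 0.49, 0.63 ± 0.53 without sample 1), none of them called. Col25a1 was called with the TCF3 label alone (1.15 ± 0.0894 against 0.417 ± 0.299 CPM, 1.42 ± 0.51, adjusted p = 0.046), and this was lost in 13 of 21 fits (adjusted p up to 0.206).

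Col26a1, a secreted collagen outside the main classes, had one of the largest relative differences. It averaged 0.66 ± 0.405 CPM in parental samples, 0.463 ± 0.138 and 0.921 ± 0.317 CPM in the monomer groups and 0.603 ± 0.133 CPM in the homodimer. With the TCF3 label it had 3.53 ± 0.486 CPM (log2 2.38 ± 0.29, adjusted p = 4.14e-06), with the TCF4 dimer 2.52 ± 0.391 CPM (1.91 ± 0.30, adjusted p = 0.000168) and with the TCF12 label 4.27 ± 0.246 CPM (2.65 ± 0.28, adjusted p = 1.15e-06, 2.61 ± 0.31 without sample 1). The contrast of the heterodimers' mean with the homodimer gave 2.47 ± 0.26 for Col26a1 (adjusted p = 1.96e-06). Col7a1, which forms the anchoring fibrils under skin, and Col8a2, a chain of a hexagonal network, had group means of 4.40 to 7.69 CPM and 2.32 to 3.37 CPM and were called in no comparison with the parental line, as was the case for Col11a2, Col16a1, Col17a1 and Col6a3.

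Comparisons among the constructs used the induced monomer as their reference or set dimers against each other. Against the induced monomer, 11 members were called in the homodimer (5 higher and 6 lower, where 18.5% of all genes were called, 9.15% higher and 9.31% lower), 18 with the TCF3 label (15 higher and 3 lower, of all genes 22.1%, 12.7% higher and 9.36% lower), 18 with the TCF4 dimer (11 higher and 7 lower, of all genes 27.4%, 14.5% higher and 13% lower) and 20 with the TCF12 label (13 higher and 7 lower, of all genes 33.5%, 18.1% higher and 15.5% lower). For the last the count was 19 of the same 20 without sample 1, plus 1 other, and 13 when only these groups were fitted. Without that library the homodimer, TCF3-labelled and TCF4 dimer counts were 15, 19 and 21. Calls made in each of the 21 fits that leave out a library were 6 of 11 in the homodimer and 14 of 18 with the TCF3 label. They were 12 of 18 with the TCF4 dimer and 16 of 20 with the TCF12 label. The Col4a1 call with the TCF3 label was lost without TCF3-labelled sample 1 (adjusted p = 0.0752). Col4a1, Col4a2 and Col13a1 were among the largest falls. Col4a2 was lower than in the induced monomer by 2.55 ± 0.09 in the homodimer (adjusted p = 1.3e-12), 2.55 ± 0.09 with the TCF4 dimer (adjusted p = 5.78e-13) and 2.35 ± 0.09 with the TCF12 label (adjusted p = 1.5e-12, 2.27 ± 0.07 without sample 1), but by 0.44 ± 0.08 with the TCF3 label (adjusted p = 0.00078). Col13a1 was lower by 2.39 ± 0.44 in the homodimer and 3.07 ± 0.45 with the TCF4 dimer (adjusted p = 0.000615 and 3.8e-05).

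The mean of the 3 heterodimer groups was compared with the homodimer, and 15 members were called, 13 higher and 2 lower, where 14% of all genes were called (7.99% higher, 6.04% lower). Col26a1 (above), Col1a2 (1.76 ± 0.18, adjusted p = 1.66e-06), Col23a1 (1.65 ± 0.24, adjusted p = 9.47e-05), Col3a1 (1.12 ± 0.21, adjusted p = 0.000808) and Col9a2 (1.06 ± 0.20, adjusted p = 0.00102) were the members with the largest positive differences, and Col2a1 (-0.88 ± 0.12, adjusted p = 3.96e-05) and Col18a1 (-0.65 ± 0.08, adjusted p = 1.54e-05) were lower. For Col4a1 (0.62 ± 0.09), Col4a2 (0.77 ± 0.07) and Col6a1 (0.68 ± 0.15) the contrast was called, but the group means with the TCF4 dimer and the TCF12 label (185 and 179 CPM, 72.3 and 83.0 CPM, 7.28 and 7.67 CPM) were close to those of the homodimer (179, 72.6 and 6.68 CPM), and the TCF3 label had 623, 313 and 21.6 CPM. For Col3a1 the homodimer (5.61 CPM) and the TCF4 dimer (6.78 CPM) overlapped, and the TCF12 and TCF3 labels had 9.09 and 29.6 CPM. The call of Col11a1 (0.60 ± 0.17, adjusted p = 0.0203) was lost without homodimer sample 1, 2 or 3 (adjusted p 0.0524 to 0.13), that of Col6a1 without homodimer sample 2 (adjusted p = 0.0615), and that of Col5a2 (0.49 ± 0.15, adjusted p = 0.0413) in 15 of 21 fits that leave out a library (adjusted p up to 0.218). Without sample 1 of the TCF12-labelled libraries the count was 16.

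Between heterodimers, the libraries labelled TCF3 dimer differed from the TCF4 dimer in 16 members, 15 higher and 1 lower (19.7% of all genes called, 11.8% higher and 7.9% lower). Without sample 1 of the TCF12-labelled libraries this count was 18. Of the 16 calls, 12 were made in each of the 21 fits that leave out a library. The 1 lower gene was Col2a1 (-1.34 ± 0.16, adjusted p = 6.83e-06). From the TCF12 label the TCF3-labelled libraries differed in 11 members, 10 higher and 1 lower (18.8% of all genes called, 9.71% higher and 9.06% lower). The count was 14 without sample 1 and 4 when these groups alone were fitted. Of the 11 calls, 8 were made in each of the 21 fits that leave out a library. The libraries labelled TCF12 dimer and the TCF4 dimer differed in 4 members, where 3.24% of all genes were called (2.07% higher, 1.17% lower): Col1a2 (0.82 ± 0.18, adjusted p = 0.0205, 0.89 ± 0.15 without sample 1), Col23a1 (1.13 ± 0.24, adjusted p = 0.0192, 0.83 ± 0.21) and Col5a1 (0.47 ± 0.09, adjusted p = 0.011, 0.42 ± 0.09) were higher and Col18a1 (-0.40 ± 0.10, adjusted p = 0.0421, -0.28 ± 0.08) was lower with the TCF12 label. When these groups alone were fitted, edgeR called 0 of 27 members tested (8 at an unadjusted p under 0.05), and DESeq2 fitted to all samples called 8. Scaled by library size only, 3 were called, all higher. Of these 4 calls, that of Col18a1 was lost in 14 of the 21 fits that leave out a library. Those of Col1a2 and Col23a1 were lost in 2 each and that of Col5a1 in 1. The count ranged from 1 (without TCF4 dimer sample 2 or 3) to 10 (without TCF12-labelled sample 3), with 7 without sample 1. A joint test of any difference among the 7 groups called 28 of the 32 members, and 50.7% of all genes, leaving Col11a2, Col16a1, Col17a1 and Col25a1.

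**Figure D5:**
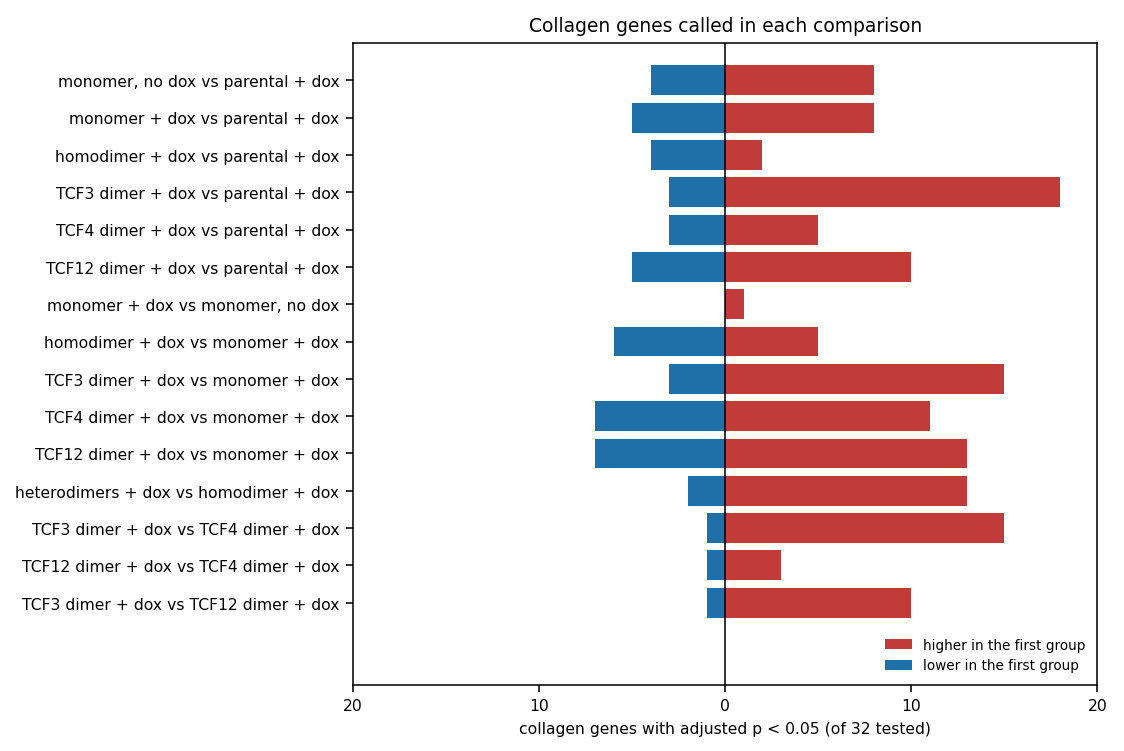
Number of the 32 tested collagen genes with an adjusted p under 0.05 in each of 15 comparisons, with genes higher in the first group to the right and lower to the left. Bars to the right are longest for the TCF3 label against the parental line (18), the induced monomer (15) and the TCF4 dimer (15), and a single gene was called between induced and uninduced monomer.

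Genes that modify, fold and cross-link collagen chains were followed in a list of 32, of which 28 were tested. In the uninduced monomer 15 were called against the parental line, in the induced monomer 12 and with the TCF3 label 17, all of them higher. Of all tested genes 10.5%, 10.8% and 16.3% were higher in these groups, and 9.43%, 9.22% and 12% were lower. The homodimer had 3 higher and 1 lower, the TCF4 dimer 6 and 1 (6 and 2 with RLE factors), and the TCF12 label 10 and 2. Of all tested genes 4.81%, 7.18% and 15.5% were higher there and 4.02%, 5.67% and 11.5% lower. Scaled by library size only, 12 genes of the list were higher and 2 lower in the induced monomer. Without sample 1 of the TCF12-labelled libraries, 16 were higher and 2 lower in the uninduced monomer, 15 higher and 4 lower in the induced monomer, 20 higher and 1 lower with the TCF3 label, 4 higher and 4 lower in the homodimer, 7 higher and 3 lower with the TCF4 dimer, and 8 higher and 3 lower with the TCF12 label. Pcolce, which enhances the removal of the C-terminal propeptide of fibrillar procollagens, went from 5.22 ± 0.555 CPM in the parental line to 12.9 ± 1.49 and 28.2 ± 2.74 CPM in the uninduced and induced monomer, 13.4 ± 1.45 CPM in the homodimer, 46.2 ± 4.76 CPM with the TCF3 label and 30.3 ± 0.578 CPM with the TCF4 dimer. With the TCF12 label it had 75.2, 42.8 and 39.5 CPM, the first being sample 1. All 6 groups were called (log2 1.29 ± 0.23, 2.43 ± 0.21, 1.36 ± 0.22, 3.14 ± 0.21, 2.54 ± 0.21 and 3.32 ± 0.21 in this order, adjusted p at most 0.000444).

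P4ha1, a catalytic subunit of the prolyl 4-hydroxylase that stabilises the triple helix, was higher in all 6 groups too, by 1.37 ± 0.09 and 1.51 ± 0.09 in the monomer groups, 1.43 ± 0.09 with the TCF3 label and 0.32 ± 0.09 to 0.64 ± 0.09 in the rest (adjusted p at most 0.0285). Serpinh1, the collagen chaperone HSP47, averaged 135 ± 10.5 CPM in parental samples, 298 ± 16.8 and 299.7 ± 28.9 CPM in the monomer groups and 233 ± 7.32 CPM with the TCF3 label, which were called, and 114 to 139.9 CPM in the other three, which were not. Bmp1, the procollagen C-proteinase, had 13.6 ± 1.69 CPM in parental samples, 44.2 ± 1.90 and 46.9 ± 5.50 CPM in the monomer groups, 31.2 ± 2.57 CPM with the TCF3 label and 12.5 to 15.3 CPM in the others. Serpinh1 and Bmp1 were thus high in the groups that were high in type IV chains. The cross-linking oxidase Lox stayed under 10 CPM and was higher in the heterodimers, with 0.844 ± 0.262 CPM in the parental line, 7.47 ± 2.11 CPM with the TCF3 label (3.13 ± 0.29, adjusted p = 1.48e-07), 2.13 ± 0.182 CPM with the TCF4 dimer (1.31 ± 0.34, adjusted p = 0.0138) and 6.39 ± 1.00 CPM with the TCF12 label (2.91 ± 0.30, adjusted p = 6.65e-07). It lies below the level set for naming genes of this list and was named after its values were seen.

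Of 9 collagen receptor genes, 5 were tested (Itga1, Itga10, Itgb1, Ddr1 and Ddr2). Against the parental line 1 was higher and 2 lower in the uninduced monomer, 1 higher and 3 lower in the induced monomer, and 1 lower in each of the homodimer and the TCF3-labelled group. Of all tested genes 19.9%, 20%, 8.84% and 28.3% were called in these groups, in this order. Itga1, an alpha chain of collagen-binding integrins, averaged 5.54 ± 1.48 CPM in parental samples. It was lower in the uninduced monomer (1.72 ± 0.634 CPM, -1.65 ± 0.28, adjusted p = 0.000288), the induced monomer (2.52 ± 0.0829 CPM, -1.13 ± 0.26, adjusted p = 0.00363) and the homodimer (2.15 ± 0.384 CPM, -1.37 ± 0.26, adjusted p = 0.0016). Like Lox, it was named after its values were seen. In the heterodimer groups it averaged 4.81 to 6.37 CPM. Ddr1, a receptor tyrosine kinase that binds collagen, averaged 69.2 ± 0.626 CPM in the parental line and was lower in the uninduced monomer (51.0 ± 4.003 CPM, -0.44 ± 0.09, adjusted p = 0.00106), the induced monomer (45.9 ± 1.39 CPM, -0.59 ± 0.09, adjusted p = 4.46e-05) and with the TCF3 label (49.0 ± 3.31 CPM, -0.50 ± 0.08, adjusted p = 0.000176). Itgb1, the beta chain of the collagen-binding integrins, had group means of 311 to 410.3 CPM and was called in the induced monomer only (-0.27 ± 0.09, adjusted p = 0.0345).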

How the data were processed

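RNA from 21 samples was sequenced after poly(A)-based library preparation, per the labels' protocols. The authors deposited 1 table of raw read counts per gene symbol for each sample. FastQC, TopHat2, HTSeq and the build mm10 (GRCm38) are listed in the submitters' processing notes; versions, annotation and strand setting are not given in the sources used here. Dates had replaced 25 symbols in 18 of the tables, so tables were joined by row position after their other symbols were checked to match; no collagen symbol was affected. Groups came from the sample labels.

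Counts were tested with edgeR 4.0.16 (limma 3.58.1, R 4.3.3): TMM factors, filterByExpr (at least 10 counts, total at least 15), a quasi-likelihood fit with 1 mean per group over all 21 samples, and Benjamini-Hochberg adjustment over 14311 genes, with calls at an adjusted p under 0.05. The SE of a log2 difference is its size divided by the square root of F. CPM were computed here with TMM factors. Totals of 6648842 to 15999693 counts set the precision. The script was tested on simulated data.

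Members with a group mean of at least 10 CPM are given in every sample, those between 1 and 10 CPM by group, and the rest by name and range. Members, lists and rules were chosen with earlier results of these data known. Alternatives were other scaling (RLE factors, library size only), other filters, DESeq2 1.42.0, only the groups compared, a replicate block, another control group and leaving out each sample. Marker and processing lists were taken from textbook knowledge. Gene coordinates, exon lengths and overlaps came from GENCODE vM21 (GRCm38), and promoter sequences from RefSeq (GRCm38.p6).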

Additional observations from a re-analysis of the deposited data

How the results depend on the processing

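Scaling by RLE factors or library size, a filter at 1 CPM in 3 samples and the removal of the filter left the collagen counts within 1.5 times of those reported, except that without a filter 11 members differed between the TCF12 label and the TCF4 dimer. DESeq2 called 8 in that comparison, where edgeR called 4. Fitted with only the groups compared, edgeR called 6 members between the TCF12 label and the parental line, 4 between induced and uninduced monomer, 13 between the TCF12 label and the induced monomer, and 4 between the TCF3 and TCF12 labels. Between the TCF12 label and the TCF4 dimer such a fit called 0 of 27 members tested, with 8 at an unadjusted p under 0.05. The cause was not tested. With the uninduced monomer as the control in place of the parental line, 13 members were called in the homodimer and 19 with the TCF4 dimer.

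Left out 1 library at a time, the counts against the parental line ranged from 8 to 14 (uninduced monomer), 9 to 19 (induced monomer), 3 to 9 (homodimer), 19 to 24 (TCF3 label), 7 to 12 (TCF4 dimer) and 14 to 17 (TCF12 label). Between induced and uninduced monomer the range was 1 to 3. Against the induced monomer it was 8 to 15, 15 to 19, 13 to 21 and 18 to 20 for the homodimer, TCF3 label, TCF4 dimer and TCF12 label. It was 12 to 16 for heterodimers against homodimer, 12 to 18 for TCF3 label against TCF4 dimer, 1 to 10 for TCF12 label against TCF4 dimer, 9 to 14 for TCF3 against TCF12 label, and 27 to 29 for any difference. The highest count came without sample 1 of the TCF12-labelled libraries in the comparisons of the uninduced monomer, induced monomer, homodimer, TCF3 label and TCF4 dimer with the parental line.

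Of 13085 refitted differences of 31 collagen genes, 12607 kept their side of the threshold without a called change of direction (218 changed sign while called under neither setting), 273 lost and 190 gained a call. The 15 that changed sign and were called against at least 1 of the control groups did so with the uninduced monomer as the control. In the homodimer they were Col27a1 (0.25) and Col4a5 (0.99). With the TCF3 label they were Col4a1 (-0.49), Col4a2 (-0.52), Col27a1 (0.91), Col5a3 (-0.15) and Col4a5 (0.91). With the TCF4 dimer they were Col2a1 (0.65), Col4a5 (1.37) and Col6a4 (-1.43). With the TCF12 label they were Col2a1 (0.10), Col6a1 (-0.65), Col5a3 (-0.91), Col4a5 (1.04) and Col13a1 (-1.19).

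The deviations of samples with the same number had a mean r of 0.02 over 63 pairs (-0.221 to 0.344, 8 over 0.1). Pairs with different numbers had a mean r of -0.01 over 126 pairs (-0.36 to 0.296, 9 over 0.1). Deviations were taken from the group means, which ties these values to each other, so they cannot decide whether some samples are paired. A fit with a replicate block gave counts of 12, 15, 6, 21, 8 and 15 against the parental line (in the order above), 1 between the monomer groups, 11, 18, 19 and 20 against the induced monomer, and 15, 16, 4, 11 and 28 in the remaining comparisons. Depth limits the 13 members under 1 CPM, for which a difference was not detectable or not tested.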
